A study of Homo sapiens with 10 samples.

Results

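The 35 genes described here are the core of the transcriptional response to amino acid shortage: the transcription factor ATF4 with its partner factors, the stress effectors, biosynthetic enzymes and amino acid transporters known as its targets, and 11 cytosolic aminoacyl-tRNA synthetases with the tRNA exporter XPOT. They were chosen by symbol, from what the genes are known to do, but with earlier results of these data known. All 35 were present among the 23243 genes shared by the 4 deposited expression tables. By role they were 6 transcription factors, 6 stress effectors, 6 enzymes of asparagine, serine and one-carbon synthesis, 5 amino acid transporters, and 12 genes of tRNA charging and export. RNA-seq was used to ask which genes respond to PcTF, a synthetic activator that fuses the chromodomain of the polycomb protein CBX8 to mCherry and to the VP64 activation domain, and so binds trimethylated lysine of histone H3.

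PcTF-transfected cells of 3 lines, K562 from a leukemia, SK-N-SH from a neuroblastoma and U-2 OS from an osteosarcoma, received 2 µg of PcTF plasmid with Lipofectamine, and were grown for up to 96 h, or up to 48 h in the case of K562. Mock-transfected cells of each line received the same vehicle without plasmid. U2OS-PcTF and U2OS-dTF are U-2 OS lines that carry an inducible transgene and were treated with 1 µg/ml doxycycline for 96 h. dTF, written ΔTF in the study, lacks the chromodomain but keeps mCherry and VP64. There was 1 library for each transfected, mock and U2OS-dTF condition and 2 for U2OS-PcTF, although the study's methods speak of 3 replicates for each stable line. According to the study, the share of transfected cells with the red fluorescent protein fell with time. It was a minority in every line at the last time point with a signal, 48 h in K562. No sorting before RNA extraction is described. A difference between PcTF-transfected and mock libraries is thus one between whole cultures and was not measured in PcTF-expressing cells. In such bulk RNA, a lower level in every cell and fewer cells that express a gene cannot be told apart.

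ATF4 is a basic leucine zipper factor whose mRNA is translated more when the kinases of eIF2alpha are active, as in cells short of an amino acid or with unfolded protein in the endoplasmic reticulum. It pairs with C/EBP proteins on composite C/EBP-ATF response elements and activates genes that make, import and charge amino acids. The same program includes brakes such as TRIB3, which dampens ATF4 activity, and PPP1R15A, which restores translation by directing a phosphatase to eIF2alpha.

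The element itself is shown first. The genes were not chosen by sequence, but they are known ATF4 targets, so how often they hold it is a description. RefSeq promoters of GRCh38.p14, which reach from 250 bases before to 50 bases after a start site, were available for 29 of the 35 genes, with synthetases under their present symbols (AARS1 for AARS). PSPH, SHMT2, SLC7A11, NUPR1, LARS and YARS had no entry. The core TGATGNAA, or TTNCATCA on the other strand, was found in 12 of the 29 (41.4%), against 4.46% of 27305 genes with a promoter. Among genes of tRNA charging and export 7 of 10 held it (70%), and among the other members 5 of 19 (26.3%). A match is a description of the letters and not a site shown to be bound, and the genes without a match in this window may hold other forms of the element. The windows below are 5′ to 3′ on the strand of the gene, with the core in capitals, and are shown because they hold the core in the genes whose levels follow.
ASNS, chr7:97872458-97872487, minus strand: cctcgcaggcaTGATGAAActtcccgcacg
CEBPG, chr19:33374060-33374089, plus strand: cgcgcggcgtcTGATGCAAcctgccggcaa
SLC7A1, chr13:29595663-29595692, minus strand: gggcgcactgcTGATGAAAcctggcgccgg
CHAC1, chr15:40953251-40953280, plus strand: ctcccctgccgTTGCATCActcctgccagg
SLC3A2, chr11:62881725-62881748, plus strand: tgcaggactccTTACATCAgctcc
AARS, chr16:70289675-70289704, minus strand: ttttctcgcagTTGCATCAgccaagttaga
CARS, chr11:3057407-3057436, minus strand: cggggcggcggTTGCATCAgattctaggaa
GARS, chr7:30594834-30594863, plus strand: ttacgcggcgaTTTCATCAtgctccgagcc
IARS, chr9:92293692-92293721, minus strand: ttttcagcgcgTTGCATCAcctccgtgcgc
MARS, chr12:57488053-57488082, plus strand: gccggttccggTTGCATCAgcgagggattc
NARS, chr18:57621804-57621833, minus strand: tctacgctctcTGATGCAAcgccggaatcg
TARS, chr5:33440956-33440985, plus strand: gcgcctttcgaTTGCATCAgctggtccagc

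In 8 of these windows the core reads TTGCATCA or its reverse complement, a form shared by CHAC1, AARS, CARS, IARS, MARS and TARS in the same orientation and by CEBPG and NARS in the opposite one. The first base of the core lay at -68 in ASNS, counted with -1 as the last base before the start site and 1 as the first transcribed base. It lay at -187 in AARS, at -33 in GARS, at -13 in IARS, at -4 in MARS, at -2 in CARS, at 3 in TARS and at 15 in NARS, so that 6 of the 7 synthetase matches were within 33 bases of the start. The 250 bases before the start of ASNS, the gene with the highest level of all 35 in any library, are printed whole (chr7:97872409-97872658, minus strand, core in capitals).
ASNS: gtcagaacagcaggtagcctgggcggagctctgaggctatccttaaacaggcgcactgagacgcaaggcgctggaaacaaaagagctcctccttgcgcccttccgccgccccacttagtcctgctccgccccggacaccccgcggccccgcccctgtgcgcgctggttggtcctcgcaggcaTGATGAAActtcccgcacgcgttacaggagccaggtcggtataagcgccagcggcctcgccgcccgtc

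**Figure D1:**
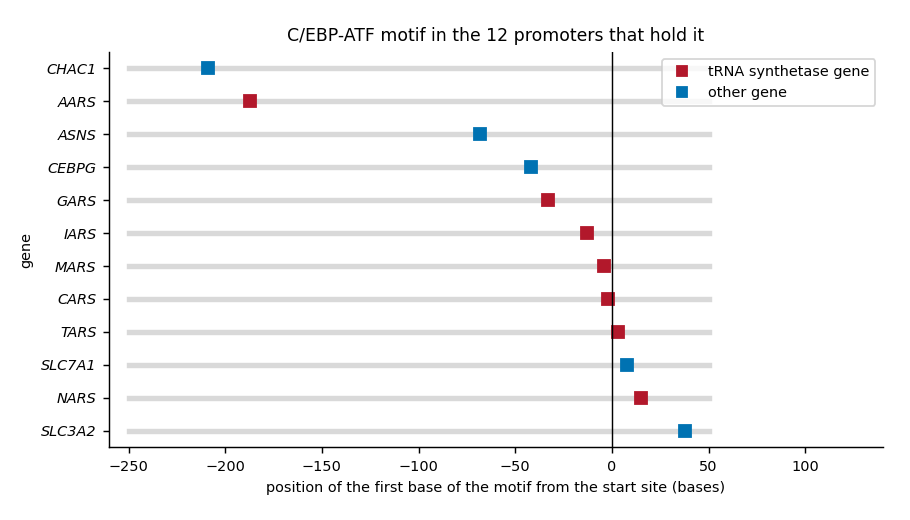
Position of the first base of the C/EBP-ATF core in the 12 promoters that hold it, in bases from the start site, where 0 marks the boundary between the base before the start and the first transcribed base. Grey bars span the 300 bases searched, red squares are tRNA synthetase genes and blue squares other genes, and most red squares lie within 33 bases of the start.

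Depth, estimated from the steps between low values, was 4.28e+06 to 7.39e+06 reads in the 7 single libraries, which detected 13246 to 16089 genes, the fewest of them in mock K562. CBX8, whose first part is in the PcTF transgene, was at 14.3 FPKM (K562), 8.85 FPKM (SK-N-SH) and 6.43 FPKM (U-2 OS) in PcTF-transfected cells, against 1.59, 0.287 and 0.610 FPKM in the mock cells, the direction that the labels imply. All 9 K562 markers were at 1 FPKM or more in both K562 libraries, and 7 of 8 neuroblastoma markers in both SK-N-SH libraries. The osteosarcoma list separated U-2 OS poorly, with 4 of 6 genes at 1 FPKM or more in both transfection libraries of U-2 OS and of SK-N-SH. Levels are FPKM, read counts scaled by the length of the gene model and by the depth of the library, so they can be compared between genes. They come from 4 separate tables, and a shared scale was checked only between those of U-2 OS, as given below. Log2 differences were taken after adding 0.1 FPKM to both values, and a gene was counted as higher or lower at a 2-fold difference if it reached 1 FPKM in either group. Each condition has 1 column of values, from 1 library or, for U2OS-PcTF, as a mean without the values of its libraries, so there is no replicate check and no test of any difference. Intervals in brackets below are exact 95% binomial intervals on a lower limit of the reads and cover counting error only.

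Most of the genes were lower with PcTF in K562, while in the adherent lines, SK-N-SH together with U-2 OS, those past 2-fold were higher. In U-2 OS, 9 of the 33 members at 1 FPKM or more were higher in PcTF-transfected than in mock cells and none was lower, against 12% of 12411 genes higher and 5.59% lower. At 5 FPKM or more in either group the count was 5 of 27. In SK-N-SH, 4 of 33 were higher and none lower, against 5.79% and 2.69% of 11954 genes. The counting interval included 0 for 3 of those 4, and at 5 FPKM or more the count was 2 of 25. In K562, 1 of 35 was higher and 20 were lower, against 28.6% and 11.7% of 11553 genes. The median log2 difference of the members was -1.16 for K562, 0.23 for SK-N-SH and 0.71 for U-2 OS, where the medians over genes at 1 FPKM or more in both libraries were 0.28, 0.09 and 0.06. Relative to these medians the members stood at -1.44, 0.14 and 0.66. In all, 19 members were above 0 in both adherent lines but below 0 in K562, 6 were above 0 in all 3 lines and none was below 0 in all 3. These counts across lines were not made over all genes, so how far they are particular to the members cannot be said.

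**Figure D2:**
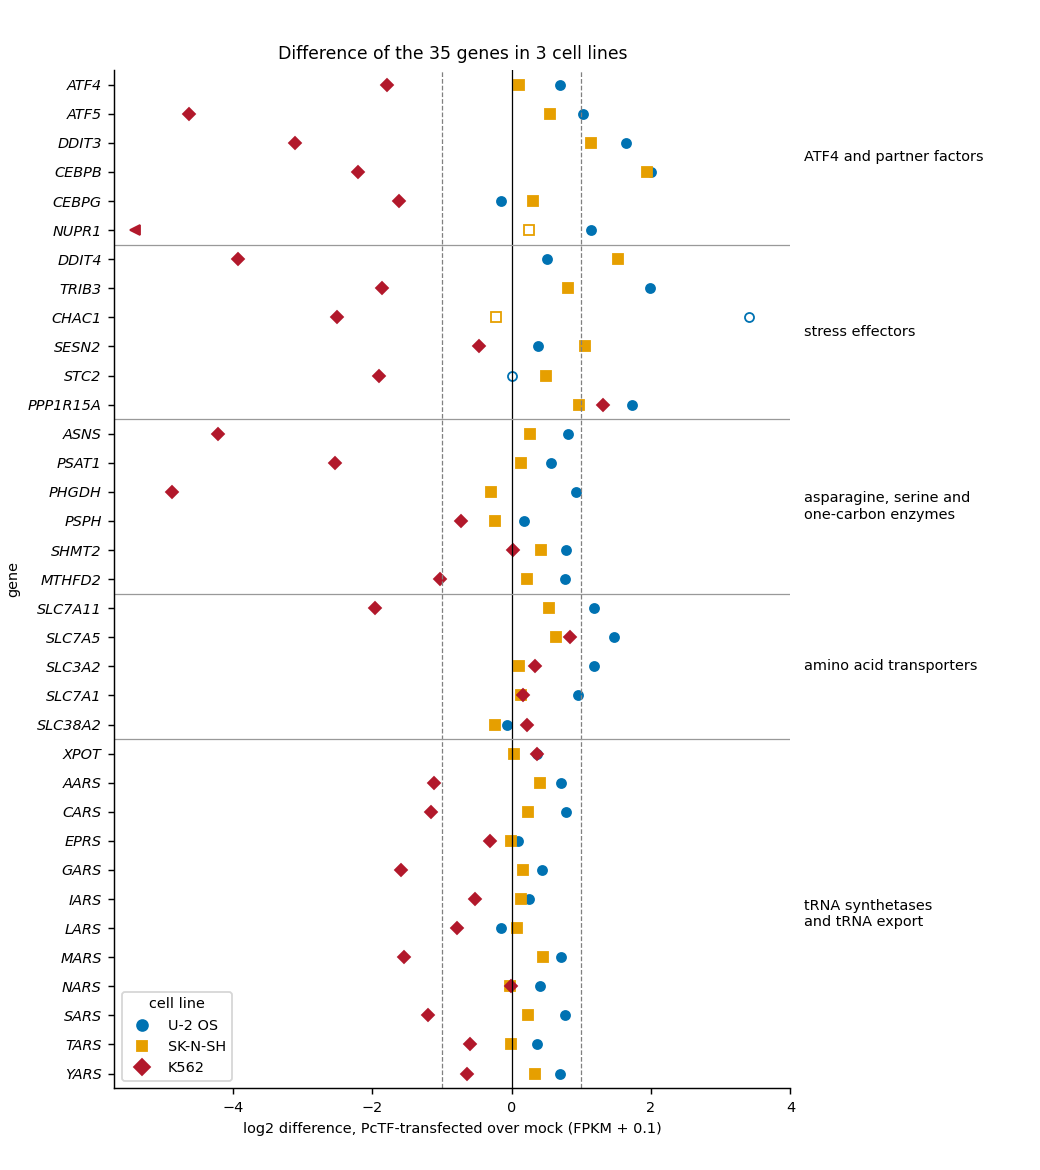
Log2 difference of PcTF-transfected over mock cells (x axis) for each of the 35 genes (rows, by role) in U-2 OS (blue circles), SK-N-SH (orange squares) and K562 (red diamonds). Dashed lines mark 2-fold, open symbols are genes under 1 FPKM in both libraries, and the arrow marks NUPR1, listed at 0 in PcTF-transfected K562 cells. The red diamonds of 28 genes lie left of 0, while 30 of the 33 filled blue circles lie right of it.

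**Figure D3:**
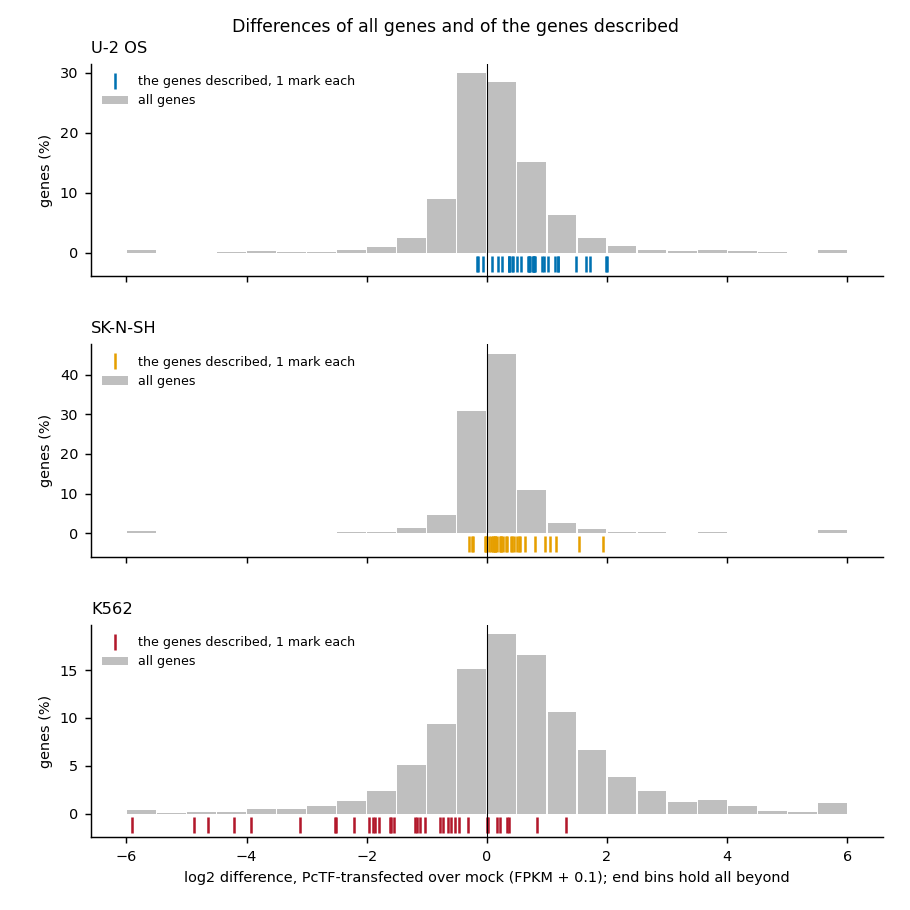
Share of all genes at 1 FPKM or more (grey bars, percent, bins of 0.5) by log2 difference of PcTF-transfected over mock cells in each line, with 1 coloured mark below for each member. The marks sit mostly right of 0 in U-2 OS and mostly left of 0 in K562, where the grey bars lean to the right. NUPR1 is drawn in the lowest bin for K562.

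All 6 transcription factors were lower in PcTF-transfected than in mock K562 cells, while 4 of 6 were higher in U-2 OS and 2 of 5 in SK-N-SH. ATF4 itself was at 126 FPKM in PcTF-transfected K562 cells and 437 FPKM in mock K562 cells (log2 -1.79, interval -1.92 to -1.67). In U-2 OS it was at 73.1 FPKM with PcTF and 45.3 FPKM in mock cells (0.69, 0.42 to 0.97), and in SK-N-SH at 26.7 and 24.8 FPKM in PcTF-transfected and mock cells (0.11, -0.26 to 0.48). The SK-N-SH interval, which rests on a lower limit of the reads, thus included 0. ATF5, a relative of ATF4 that is also controlled at translation, had the larger contrast. It was at 8.85 FPKM in PcTF-transfected K562 cells, against 222 FPKM in mock cells, a 24.8-fold lower level. In U-2 OS it was at 2.37 FPKM with PcTF and 1.11 FPKM in mock cells (1.02, interval -1.04 to 3.81), on at least 6 and 3 reads, and in SK-N-SH at 2.49 and 1.67 FPKM (0.55).

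DDIT3, which encodes the factor CHOP and promotes death under prolonged stress, was higher with PcTF in both adherent lines and lower in K562. In PcTF-transfected cells it was at 14.2 FPKM (U-2 OS), 9.80 FPKM (SK-N-SH) and 44.7 FPKM (K562), against 4.46, 4.38 and 385 FPKM in the mock cells of the same lines. The log2 differences were 1.65 (0.38 to 3.39), 1.14 (-0.02 to 2.98) and -3.10 (-3.43 to -2.80). Mock K562 cells thus held far more DDIT3 RNA than any other library. The deposited interval of DDIT3 is also that of MARS on chromosome 12, and the counting is not stated to use strand, so reads from where the genes meet cannot be assigned between them. In all 8 members share a deposited interval with another gene, among them ATF5, SHMT2, SLC7A11, EPRS, IARS and YARS, and their values are uncertain to that extent. CEBPB, a C/EBP partner of ATF4, was at 4.17 FPKM in PcTF-transfected and 0.967 FPKM in mock U-2 OS cells (2.00, 0.57 to 4.85). It was at 2.22 and 0.505 FPKM in PcTF-transfected and mock SK-N-SH cells (1.94, -0.04 to 5.37) and at 3.97 and 18.7 FPKM in those K562 cells (-2.21, -3.00 to -1.58). DDIT3 and CEBPB were the 2 members at least 2-fold higher in both adherent lines, a count not made over all genes.

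CEBPG, the partner that forms stable dimers with ATF4, was at 14.9 FPKM in PcTF-transfected K562 cells and 45.8 FPKM in mock cells (-1.61). In U-2 OS it was at 12.7 and 14.1 FPKM with PcTF and without (-0.16), and in SK-N-SH at 13.8 and 11.1 FPKM (0.31), both with intervals that include 0. NUPR1, a small stress-induced chromatin protein, was listed at 0 in PcTF-transfected K562 cells and was at 48.6 FPKM in mock K562 cells. With 3 reads as the most that a count of 0 allows, and the mock level taken as exact, it was at least 7.12-fold lower. The interval that also counts the error of the mock level, on at least 13 reads, reached up to -2.27 on the log2 scale, a smaller difference. Using the 7.12-fold bound (log2 -2.83) in place of the value from the pseudocount, the median of the 6 factors in K562 was -2.52 rather than -2.66. NUPR1 was at 37.6 FPKM in PcTF-transfected and 17.0 FPKM in mock U-2 OS cells (1.14, -0.48 to 3.51) and at 0.717 and 0.588 FPKM in those of SK-N-SH.

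Of the 6 stress effectors, 4 were lower and 1 was higher in PcTF-transfected K562 cells, while 2 of 4 were higher in U-2 OS and 2 of 5 in SK-N-SH. DDIT4, an inhibitor of the growth kinase complex mTORC1, was at 14.3 FPKM in PcTF-transfected and 218 FPKM in mock K562 cells, a 15.1-fold lower level. Its level was 8.79 and 2.98 FPKM in PcTF-transfected and mock SK-N-SH cells (1.53, 0.41 to 3.09), and it was the one 2-fold difference of that line whose interval excluded 0. In U-2 OS it was at 25.9 and 18.2 FPKM (0.50, -0.12 to 1.09). TRIB3 was at 5.71 FPKM in PcTF-transfected and 1.37 FPKM in mock U-2 OS cells, a 3.96-fold higher level (interval 0.81 to 4.02 on the log2 scale). It was at 6.82 and 3.85 FPKM in PcTF-transfected and mock SK-N-SH cells (0.81) and at 31.7 and 115 FPKM in those K562 cells (-1.85). TRIB3 followed the same split as DDIT3, with the highest level again in mock K562.

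PPP1R15A, the phosphatase subunit named above, stood apart as the member that was higher in K562 as well. It was at 3.64 FPKM in PcTF-transfected U-2 OS, 3.37 FPKM in SK-N-SH and 16.2 FPKM in K562 cells, against 1.03, 1.68 and 6.47 FPKM in the mock cells of those lines. The log2 differences were 1.72 (0.70 to 3.09), 0.97 (0.19 to 2.04) and 1.31 (0.89 to 1.78). It was the only member whose interval lay above 0 in all 3 lines. SESN2, a sestrin that senses leucine upstream of mTORC1, was at 2.40 and 1.10 FPKM in PcTF-transfected and mock SK-N-SH cells (1.06, -0.26 to 2.56). In K562 it was at 9.33 and 12.9 FPKM (-0.46, -0.93 to 0.01) and in U-2 OS at 2.11 and 1.60 FPKM (0.37). CHAC1, which degrades glutathione, was at 0.994 FPKM in PcTF-transfected and 6.12 FPKM in mock K562 cells (-2.51), and under 1 FPKM in both other lines, with mock U-2 OS cells listed at 0. STC2, a secreted stanniocalcin, was at 1.65 and 6.44 FPKM in PcTF-transfected and mock K562 cells (-1.90), at 1.73 and 1.20 FPKM in those of SK-N-SH (0.50), and listed at 0 in both U-2 OS libraries.

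Of the 6 biosynthetic enzymes, 4 were lower in PcTF-transfected than in mock K562 cells, with a median of -1.78 over the 6, and none passed 2-fold in U-2 OS or SK-N-SH. ASNS, which makes asparagine and is the standard reporter of this pathway, was at 52.5 FPKM in PcTF-transfected and 975 FPKM in mock K562 cells, an 18.5-fold lower level (log2 -4.21, -4.34 to -4.09). In U-2 OS it was at 77.6 and 44.3 FPKM in PcTF-transfected and mock cells (0.81, 0.60 to 1.01), and in SK-N-SH at 33.9 and 28.1 FPKM (0.27, 0.02 to 0.53). PHGDH, the first enzyme of serine synthesis, was at 3.80 and 114 FPKM in PcTF-transfected and mock K562 cells, a 29.4-fold lower level. Its level was 16.0 and 8.36 FPKM in PcTF-transfected and mock U-2 OS cells (0.93, 0.46 to 1.45) and 3.54 and 4.35 FPKM in those of SK-N-SH (-0.29, -1.07 to 0.47). In mock K562 cells the step into serine synthesis was thus expressed well above the other lines, and with PcTF it was within the range of their 4 libraries.

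PSAT1, the next enzyme of serine synthesis, was at 13.4 and 78.0 FPKM in PcTF-transfected and mock K562 cells (-2.54), while PSPH, the last one, was at 3.73 and 6.25 FPKM (-0.73, -1.89 to 0.57). The serine route was therefore lower at its first 2 steps. At its last step the interval, which rests on a lower limit of the reads, included 0. In U-2 OS, PSAT1 was at 12.004 and 8.10 FPKM with PcTF and in mock cells (0.56) and PSPH at 2.32 and 2.03 FPKM (0.18). In SK-N-SH they were at 31.3 and 28.4 FPKM (0.14) and at 6.53 and 7.74 FPKM (-0.24). MTHFD2, a mitochondrial folate enzyme, was at 45.7 and 93.1 FPKM in PcTF-transfected and mock K562 cells (-1.03) and at 59.4 and 34.99 FPKM in those of U-2 OS (0.76, 0.45 to 1.08). SHMT2, which moves one-carbon units from serine to folate in mitochondria, was at 67.5 and 66.7 FPKM in PcTF-transfected and mock K562 cells (0.02, -0.16 to 0.20). It was at 18.5 and 10.7 FPKM in those of U-2 OS (0.78) and at 9.32 and 6.93 FPKM in those of SK-N-SH (0.42), where MTHFD2 was at 27.8 and 23.9 FPKM (0.22). For SHMT2 in K562 the interval leaves little room for a difference from counting alone, in the same libraries where MTHFD2 was 2.04-fold lower with PcTF.

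The amino acid transporters did not share the lower levels in K562. Their median there was 0.21, or -0.07 relative to all genes, and 1 of 5 was lower. SLC7A11, the cystine importer, was at 2.37 and 9.47 FPKM in PcTF-transfected and mock K562 cells (-1.95, -2.82 to -1.30) but at 6.64 and 2.88 FPKM in those of U-2 OS (1.18, 0.33 to 2.09). SLC7A5, the light chain of the leucine transporter LAT1, was at 27.6 and 15.5 FPKM in PcTF-transfected and mock K562 cells (0.83, 0.50 to 1.19). In U-2 OS it was at 3.06 and 1.04 FPKM (1.48, 0.28 to 3.32). SLC3A2, the heavy chain shared by both transporters, was at 73.9 and 58.5 FPKM in PcTF-transfected and mock K562 cells (0.34, 0.16 to 0.52) and at 18.7 and 8.23 FPKM in those of U-2 OS (1.18, 0.72 to 1.69). In U-2 OS the heavy chain, SLC7A11 and SLC7A5 were thus all higher with PcTF.

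The remaining transporters were within 2-fold in every line. SLC7A1, which imports arginine and lysine, was at 9.90 and 5.07 FPKM in PcTF-transfected and mock U-2 OS cells (0.95, 0.40 to 1.57), at 10.2 and 9.35 FPKM in those of SK-N-SH (0.13) and at 13.9 and 12.4 FPKM in those of K562 (0.17). SLC38A2, a neutral amino acid transporter of system A, was at 140 and 147 FPKM in PcTF-transfected and mock U-2 OS cells (-0.07), at 147 and 172 FPKM in those of SK-N-SH (-0.23), and at 31.9 and 27.5 FPKM in those of K562 (0.21). It was the most abundant member in both SK-N-SH libraries. In SK-N-SH no transporter passed 2-fold, with SLC7A11 at 3.71 and 2.52 FPKM (0.54), SLC7A5 at 1.30 and 0.798 FPKM (0.64) and SLC3A2 at 6.60 and 6.15 FPKM (0.10).

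The 11 synthetases, which attach amino acids to their tRNAs, and XPOT differed in the same direction by smaller steps. In K562, 5 of the 12 were lower with PcTF, 11 of 12 were below 0, and the median was -0.71. GARS, the glycyl-tRNA synthetase, was at 114 and 343 FPKM in PcTF-transfected and mock K562 cells (-1.59), MARS, for methionine, at 85.4 and 249 FPKM (-1.54), and SARS, for serine, at 82.4 and 189 FPKM (-1.19). CARS, for cysteine, was at 36.5 and 81.8 FPKM (-1.16) and AARS, for alanine, at 68.2 and 147 FPKM (-1.11). LARS, for leucine, was at 91.4 and 158 FPKM (-0.79), YARS, for tyrosine, at 63.5 and 99.2 FPKM (-0.64), and TARS, for threonine, at 140 and 211 FPKM (-0.60). IARS, for isoleucine, was at 130 and 187 FPKM (-0.52), EPRS, for glutamate and proline, at 162 and 201 FPKM (-0.31), and NARS, for asparagine, at 80.4 and 80.5 FPKM (0.00). These genes are deeply sequenced, and for each but NARS the interval lay below 0. XPOT was the exception in the other direction, at 31.8 and 24.6 FPKM (0.37, 0.17 to 0.57).

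In U-2 OS the same group had a median of 0.42, with 11 of 12 above 0 and none past 2-fold. CARS, SARS, AARS and MARS, 4 of the 5 that were 2-fold lower in K562, had the highest differences, with YARS beside them. CARS was at 27.7 and 16.1 FPKM in PcTF-transfected and mock U-2 OS cells (0.78), SARS at 29.7 and 17.5 FPKM (0.76), AARS at 32.8 and 19.9 FPKM (0.71), MARS at 41.3 and 25.4 FPKM (0.70) and YARS at 19.7 and 12.1 FPKM (0.70). LARS was at 64.2 and 71.4 FPKM (-0.15, -0.28 to -0.03), the one member with an interval below 0 in U-2 OS. The other 6 ran between 0.09 (EPRS, 105 and 98.4 FPKM) and 0.43 (GARS, 69.4 and 51.3 FPKM). In SK-N-SH the 12 differed by -0.03 to 0.46, the highest being MARS, at 33.4 and 24.3 FPKM in PcTF-transfected and mock cells (0.26 to 0.66 by its interval). The summed level of the 12 was 661 and 529 FPKM in PcTF-transfected and mock U-2 OS cells, 619 and 578 FPKM in those of SK-N-SH, and 1086 and 1971 FPKM in those of K562.

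Mock K562 cells were the library that stood apart. For 26 of the 35 members (74.3%) they held the highest level of the 8 columns of values, against 13.1% of 15356 genes that reached 1 FPKM in any column, and for 11 of the 12 genes of tRNA charging and export. For 17 members, a count not made over all genes, their level was at least 2-fold above the highest of the other 7 columns. ASNS was 12.6-fold, ATF5 10.9-fold, DDIT3 8.62-fold and DDIT4 8.40-fold above it. PcTF-transfected K562 cells were above all 4 transfection libraries of U-2 OS and SK-N-SH for 22 members, within their range for 10 and below it for 3, while mock K562 cells were above all 4 for 32. Over all genes these shares were 39.6% for PcTF-transfected and 32.7% for mock K562 cells. ATF4, at 126 FPKM in PcTF-transfected and 437 FPKM in mock K562 cells, was nearer with PcTF to the 24.8 to 73.1 FPKM of those 4 libraries. PPP1R15A, at 16.2 and 6.47 FPKM in PcTF-transfected and mock K562 cells, was farther with PcTF from their 1.03 to 3.64 FPKM, as were SLC7A5 and SLC3A2 from theirs. The lines are in separate tables, and a shared scale between lines was not tested. The study grew each line in a different medium, and K562 for up to 48 h against 96 h for the others. Line, medium and time cannot be told apart in these levels.

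**Figure D4:**
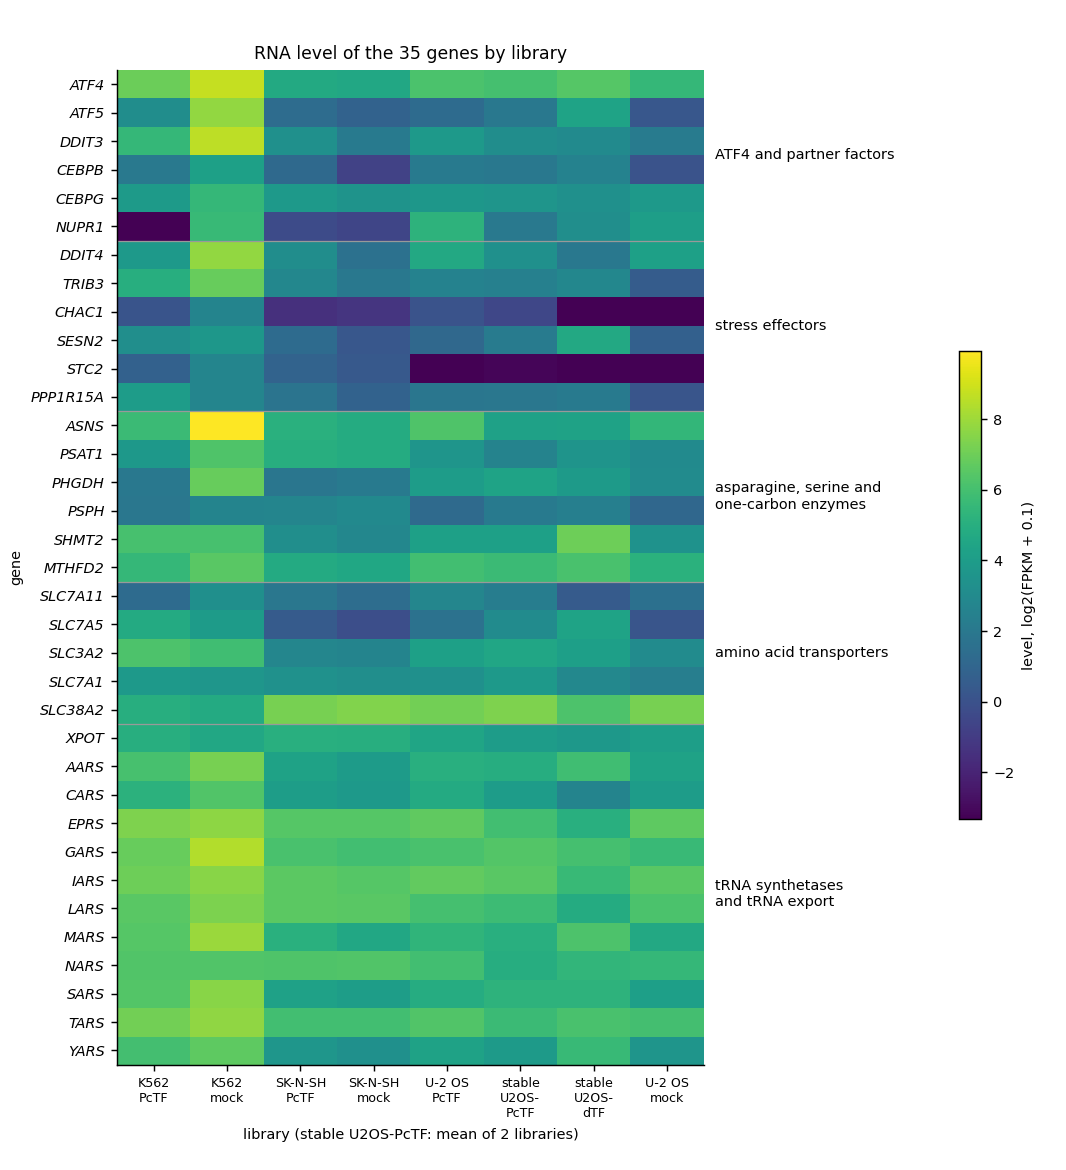
Level of each of the 35 genes (rows, by role) in each column of values, as log2(FPKM + 0.1) by colour, with yellow highest. Stable U2OS-PcTF is the mean of 2 libraries and the other columns are single libraries. The column of mock K562 is the brightest in 26 of the 35 rows, with ASNS at 975 FPKM the brightest cell.

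Other measures differed within the K562 pair in the same libraries. GAPDH was at 2894 FPKM in PcTF-transfected and 428 FPKM in mock cells. The 9 erythroleukaemia markers summed to 21478 FPKM with PcTF and 7335 FPKM in mock cells, with 7 of 9 at least 2-fold higher with PcTF, and 14975 and 13246 genes were detected. Their part in the differences of the ATF4 genes was not tested. Another gene list differed in both adherent lines: 16 of 16 interferon-stimulated genes at 1 FPKM or more were higher in PcTF-transfected U-2 OS cells and 18 of 18 in SK-N-SH, with summed levels of 2894 and 495 FPKM and of 607 and 85.2 FPKM in PcTF-transfected and mock cells. In K562, 3 of 9 were higher and 2 lower. Whether this bears on the ATF4 genes was not tested.

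Genes of neighbouring pathways gave the setting. Among 22 other known ATF4 targets, 11 of 19 at 1 FPKM or more were higher in PcTF-transfected U-2 OS cells and none lower, 3 of 18 were higher and 1 lower in SK-N-SH, and 2 of 19 were higher and 11 lower in K562. GPT2, an alanine aminotransferase, was at 0.682 and 8.44 FPKM in PcTF-transfected and mock K562 cells (-3.45), ALDH1L2, a mitochondrial folate enzyme, at 1.93 and 21.9 FPKM (-3.44), and BBC3, a cell death factor, at 0.589 and 7.27 FPKM (-3.42). The stress cytokine gene GDF15 was at 9.60 and 1.03 FPKM in PcTF-transfected and mock U-2 OS cells (3.11), and ATF3 at 1.36 and 0.112 FPKM in those of SK-N-SH (2.79). The ATF3 difference depends on the pseudocount of 0.1 FPKM, because the mock value is close to it. These targets, counted apart from the 35, showed the same split between lines.

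Synthetases outside the 35 did not follow the group in K562. Of 8 other cytosolic synthetases at 1 FPKM or more, 2 were higher and 1 was lower with PcTF, with a median of 0.41. Of all genes, 28.6% were higher and 11.7% lower in K562. WARS, for tryptophan, was at 79.3 and 590 FPKM in PcTF-transfected and mock K562 cells (-2.90), but FARSA, a subunit of the phenylalanine enzyme, was at 57.6 and 10.1 FPKM (2.50). VARS was listed at 0 in every column. Of 16 mitochondrial synthetases, 5 were higher and 1 lower in K562 (median 0.47), with NARS2 at 13.5 and 3.96 FPKM (1.75) and PARS2 at 3.15 and 13.1 FPKM (-2.02). Relative to all genes, the medians of these lists were 0.13 and 0.19.

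The kinases and sensors upstream of ATF4 differed less in RNA. Of 8 genes, 1 was higher in each line and none lower. EIF2AK2, the double-stranded RNA kinase PKR, was the gene in question in U-2 OS, at 116 and 50.3 FPKM in PcTF-transfected and mock cells (1.21), and in SK-N-SH, at 104 and 43.1 FPKM (1.27). In K562 it was EIF2S1, which encodes eIF2alpha itself, at 31.9 and 6.95 FPKM (2.18). EIF2AK4, the amino acid sensor GCN2, was at 21.3 and 24.1 FPKM in PcTF-transfected and mock K562 cells (-0.18). Chaperones of the ATF6 and XBP1 branches, which mark unfolded protein in the endoplasmic reticulum, mostly stayed within 2-fold. Of 15, 2 were higher in U-2 OS, none passed 2-fold in SK-N-SH, and 1 was higher and 2 lower in K562. The higher one in K562 was CALR (1.02), and the lower ones were CRELD2 (-1.47) and SEL1L (-1.40). The median was 0.32 for U-2 OS (0.26 relative to all genes), 0.03 for SK-N-SH (-0.06) and -0.21 for K562 (-0.49). Relative to all genes, none was higher and 3 were lower in K562. The signs for U-2 OS and K562 were those of the 35 members, by smaller steps. HSPA5, the chaperone BiP, was at 147 and 190 FPKM in PcTF-transfected and mock K562 cells (-0.37). NRF2 targets of the oxidative stress response were 1 higher of 9 in U-2 OS (11.1%), none past 2-fold in SK-N-SH, and 1 higher and 1 lower of 9 in K562 (11.1% each). SLC7A11, which is on both lists, was the one higher in U-2 OS and the one lower in K562.

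In the stable U-2 OS lines the comparison was of PcTF with dTF, which lacks the chromodomain, both under doxycycline. The U2OS-PcTF value is the mean of 2 libraries, derived from a deposited mean that also holds the PcTF-transfected library. This takes that library to be on the same scale in both U-2 OS tables. If so, 3 times the deposited mean cannot fall below the PcTF-transfected value. It fell more than 1% below for 10 of 16049 genes and equalled that value within 0.01% for 325. Of 33 members, 4 were higher and 7 lower in U2OS-PcTF than in U2OS-dTF cells, against 37% of 12920 genes higher and 13.5% lower. Centred on all genes, 1 was higher and 9 lower, and with the deposited mean of 3 libraries 7 were higher and 6 lower, so the balance of the counts depends on the setting. The median of the members was -0.14, or -0.53 relative to all genes, whose own median was 0.39. SHMT2 was at 18.2 FPKM in U2OS-PcTF and 126 FPKM in U2OS-dTF cells (-2.79), SESN2 at 4.46 and 25.5 FPKM (-2.49), and ATF5 at 3.89 and 20.4 FPKM (-2.36). Lower members also included YARS at 14.6 and 48.7 FPKM (-1.73), SLC7A5 at 8.19 and 20.2 FPKM (-1.29), NUPR1 at 4.00 and 9.23 FPKM (-1.18) and MARS at 32.9 and 73.9 FPKM (-1.16). The higher ones were SLC7A11 at 4.74 and 1.28 FPKM (1.81), DDIT4 at 9.92 and 3.79 FPKM (1.37), CARS at 15.9 and 6.30 FPKM (1.32) and SLC38A2 at 165 and 75.7 FPKM (1.12). ATF4 was at 66.0 and 86.5 FPKM (-0.39) and ASNS at 18.9 and 19.8 FPKM (-0.07), so the pathway's central factor and its standard reporter were both within 2-fold.

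U2OS-dTF and mock U-2 OS cells differ in line, transgene, doxycycline and transfection reagent at once, which cannot be told apart. Their values come from separate tables, between which only the scale of the PcTF-transfected library was checked. Of 33 members, 14 were higher and 6 lower in U2OS-dTF cells, against 28.1% of 12660 genes higher and 32% lower. SLC7A5 was at 20.2 FPKM in U2OS-dTF and 1.04 FPKM in mock cells (4.16), ATF5 at 20.4 and 1.11 FPKM (4.08), SESN2 at 25.5 and 1.60 FPKM (3.91) and SHMT2 at 126 and 10.7 FPKM (3.55). This comparison and that of the stable lines share the U2OS-dTF library. ASNS went the other way, at 19.8 FPKM in U2OS-dTF and 44.3 FPKM in mock cells (-1.16), as did DDIT4 at 3.79 and 18.2 FPKM (-2.24). Among the synthetases YARS, AARS, MARS and SARS were higher, by 2.00, 1.56, 1.54 and 1.08 on the log2 scale, while EPRS, CARS and LARS were lower, at -1.61, -1.34 and -1.33. The 12 genes of tRNA charging and export therefore had a median of 0.02 with differences on both sides.

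Across the 4 U-2 OS conditions, members whose log2 difference of transiently PcTF-transfected over mock cells was above 0 did not all behave alike in the stable lines. TRIB3 was at 5.71 FPKM in PcTF-transfected, 5.41 FPKM in U2OS-PcTF, 6.83 FPKM in U2OS-dTF and 1.37 FPKM in mock cells. PPP1R15A was at 3.64, 3.72, 4.11 and 1.03 FPKM in the same order, and CEBPB at 4.17, 3.80, 5.71 and 0.967 FPKM. Mock cells were thus the low point for these 3 genes, with dTF cells no lower than PcTF cells. ASNS was at 77.6, 18.9, 19.8 and 44.3 FPKM, NUPR1 at 37.6, 4.00, 9.23 and 17.0 FPKM, and DDIT4 at 25.9, 9.92, 3.79 and 18.2 FPKM in that order. For these the transient library was the highest and both stable lines were below mock cells. In that library ASNS (0.81) and DDIT4 (0.50) were within 2-fold of mock cells, and the intervals of DDIT4 and NUPR1 included 0.

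**Figure D5:**
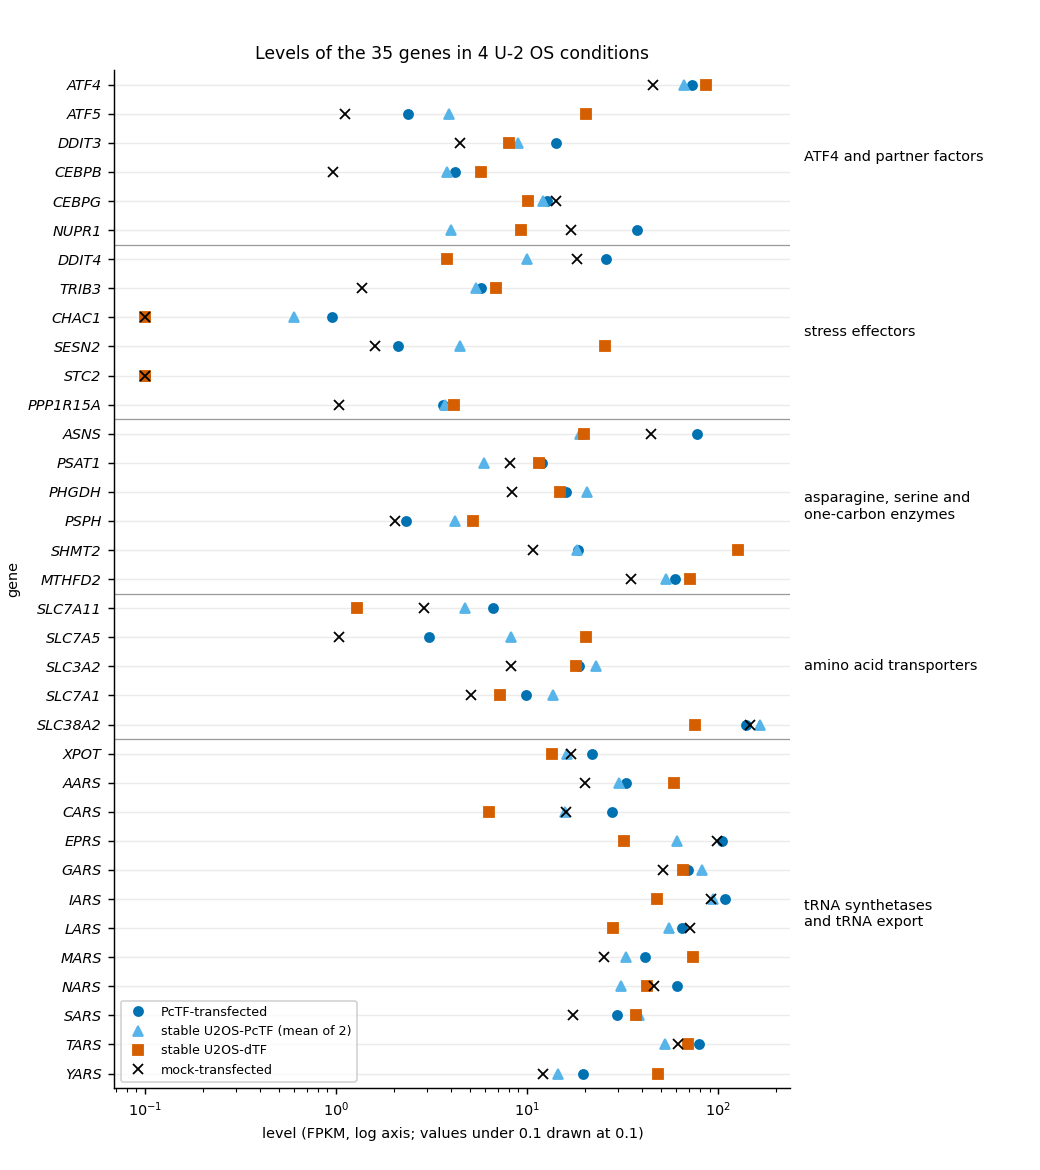
Level of each of the 35 genes (rows, by role) in FPKM on a log axis in PcTF-transfected (dark blue circles), stable U2OS-PcTF (light blue triangles, mean of 2 libraries), stable U2OS-dTF (orange squares) and mock-transfected U-2 OS cells (crosses). The cross is the lowest symbol for TRIB3, PPP1R15A, CEBPB and SLC7A5, and the orange square is far to the right for ATF5, SESN2 and SHMT2.

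Members with and without the promoter core were set side by side in K562. Of 12 members whose promoter held it, 7 were at least 2-fold lower with PcTF (58.3%), and of 17 without it, 11 (64.7%). ASNS, CHAC1, CEBPG, AARS, CARS, GARS and MARS were lower and held the core, while IARS, NARS, TARS, SLC7A1 and SLC3A2 held it and were within 2-fold.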

How the data were processed

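RNA-seq libraries (50-bp single-end reads of amplified total RNA) were aligned by the authors to hg19 with TopHat2 2.1.0, and the values used here are the FPKM columns that the authors deposited in 4 Cuffdiff tables. The deposited tables also hold the authors' fold changes and p-values, which were not used. Whether the K562 table is the version behind the study's plots was not known. Of 10 libraries, 9 were used. The tenth, a U-2 OS dTF library whose labels conflict on transfection or a stable transgene, was not analysed here. The stable U2OS-PcTF value was derived as the mean of 2 libraries from a deposited mean of 3 that included the transfected library. In this derived column 126 values below 0, none of a member, were set to 0. With 1 column of values per condition no test was run. Log2 differences used a pseudocount of 0.1 FPKM, and genes at 1 FPKM or more in either group were counted at 2-fold. Alternatives were pseudocounts of 1 and 0.01, no filter, a filter of 5 FPKM, centring on the median of all genes, and the deposited mean of 3.

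Depth was estimated from the whole-read steps of low FPKM values of single-exon genes (3% tolerance, 100% whole, fragments assumed to be 200 bp with an SD of 80). Lower limits of reads used coding lengths of a GENCODE annotation on GRCh37, an alternative chosen after seeing the data, with exact Clopper-Pearson intervals of 95%. The calculations were tested on simulated data. Python 3.11.15, numpy 2.4.6, pandas 2.3.3, scipy 1.17.1 and matplotlib 3.10.9 were used. All 35 members are named, and of each other list up to 3 genes with the largest absolute difference; EIF2AK4 and HSPA5 were named outside this rule, after their values were seen. The members and lists were chosen with earlier results of these data known.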

Additional observations from a re-analysis of the deposited data

Results flagged for a closer look

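In 9 cases a member was at least 2-fold higher with PcTF in one line and at least 2-fold lower in K562, each with 1 library per group, so that the difference between lines was not tested. How often this held over all genes was not counted. Given as the log2 difference in U-2 OS minus that in K562, the values were 5.66 for ATF5, 4.75 for DDIT3, 3.84 for TRIB3, 3.13 for SLC7A11 and 4.21 for CEBPB. NUPR1 gave 10.07, a value that depends on the pseudocount because the gene is listed at 0 in PcTF-transfected K562 cells. For SK-N-SH minus K562 the values were 4.25 for DDIT3, 5.45 for DDIT4 and 4.15 for CEBPB.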

How the results depend on the processing

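No median over all members changed sign under any alternative, while centring turned the median of the transporters in K562 and of the synthetases in the stable lines. With a filter of 5 FPKM, 5 of 27 members rather than 9 of 33 were higher in U-2 OS, 2 of 25 rather than 4 of 33 in SK-N-SH, and the median of U2OS-PcTF over U2OS-dTF was -0.31 rather than -0.14. Centring on all genes gave a K562 median of -1.44 rather than -1.16, and for U2OS-PcTF over U2OS-dTF 1 higher and 9 lower members rather than 4 and 7, with a median of -0.53. With the deposited mean of 3 in place of the derived mean, 7 were higher and 6 lower there, which turned the balance of the counts. Without a filter the median of U2OS-dTF over mock cells was 0.51 rather than 0.81. Both other pseudocounts left all 15 values within the limits set for a change. The causes were not tested. No paired analysis was possible because each condition has 1 column of values, and leave-one-out was not possible for the same reason. Counting limits the lowest genes: of members at 2-fold, the interval included 0 for 2 of 9 in U-2 OS (ATF5 and NUPR1), 3 of 4 in SK-N-SH (DDIT3, SESN2 and CEBPB) and none of 21 in K562.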
